A study of Mus musculus with 12 samples.

Results

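The genes described here are the nuclear-encoded subunits of the mitochondrial respiratory chain and ATP synthase, chosen by symbol: Ndufa, Ndufb, Ndufc, Ndufs, Ndufv and Ndufab1 genes, Uqcr genes, Cox4 to Cox8 genes without Cox6a2, and Atp5 genes, without pseudogenes named as such. The rule gave 80 of the 24421 gene symbols in the table. By assembly, 36 belonged to complex I, 8 to complex III, 19 to complex IV (Ndufa4 and its paralog Ndufa4l2 included) and 17 carried an ATP synthase symbol. Atp5s and Atp5sl fall under the rule by symbol only. After the filter on low counts, 76 of the 80 were tested, among 14810 tested genes. The other 4 were Ndufs5, Cox7b2, Cox8b and Cox8c.

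The electron transport chain passes electrons from NADH through complex I to ubiquinone, from ubiquinone through complex III to cytochrome c, and from cytochrome c through complex IV to oxygen. Complexes I, III and IV pump protons, and ATP synthase uses the returning protons to make ATP. Each of these assemblies mixes subunits encoded in the mitochondrial genome with nuclear-encoded ones, and the mitochondrially encoded subunits are not analysed here. Complex I has core subunits that carry the flavin and the iron-sulfur clusters, and accessory subunits around its matrix arm and its membrane arm. In mouse embryos the days after gastrulation are a time when cells draw largely on glycolysis and the heart begins to beat.

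RNA was sequenced from untreated C57Bl/6 mouse embryos with an altered Eftud2 gene in neural crest cells; Eftud2 encodes a GTPase in the U5 particle of the spliceosome. The 12 libraries formed 4 groups of 3: heterozygous (Eftud2+/-, the study's controls) and homozygous (Eftud2-/-) embryos, each collected on embryonic day 9.0 (E9.0) or 9.5 (E9.5). The control embryos also carried the Eftud2 alteration on 1 allele, so no library here is wild type. The labels name the sampled material as neural crest cells in one field and as cranial nerve ganglia in another, while the protocol describes stored heads. The Cre driver, the altered exons and how many embryos made up a library are not given in the sources used here, and nothing states that replicates came from separate litters. The p-values therefore measure the spread between these libraries only.

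Library totals ran from 13914543 to 31172708 counts, and the 80 genes held 0.432% to 0.916% of them. The 45S ribosomal RNA row Rn45s took 37.4% of the counts in heterozygous E9.0 replicate 1 and 6.05% to 16.2% in the other E9.0 libraries. In the E9.5 libraries it took 4.4% to 5.9%, so its share differed with stage without overlap. Heterozygous E9.0 replicate 1 stands apart. Calls and the member median between genotypes at E9.0 are also given without it, while sums, count ratios and the other medians include it. Levels are CPM, counts per 1000000 on library sizes scaled by TMM (trimmed mean of M values). The TMM factors were 0.664 to 1.05 at E9.0 and 1.09 to 1.11 at E9.5. Effects of stage and of this difference between the libraries cannot be told apart. Eftud2 ranged from 275.5 to 302.5 CPM in heterozygous and from 232.3 to 236.2 CPM in homozygous libraries at E9.0, and from 247.7 to 264.5 and from 221 to 226.3 CPM at E9.5. Neither stage had overlapping genotypes, and most of the Eftud2 signal was still present in homozygous libraries. Markers fixed for neural crest (7 genes, 204.7 to 372.6 CPM summed), cranial ganglia (7 genes, 69.2 to 108.4 CPM), neuroepithelium (5 genes, 581.1 to 757.7 CPM) and heart muscle (9 genes, 109.3 to 6650 CPM) were present in all 12 libraries. The labelled neural crest and ganglion markers were thus present, together with those of other tissues.

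More respiratory chain genes were called higher than lower at E9.5 in both genotypes. In heterozygous libraries 41 of the 76 tested members were higher at E9.5 than at E9.0 and 2 were lower (edgeR quasi-likelihood test, Benjamini-Hochberg adjusted p under 0.05 over all tested genes). Of all tested genes 19.2% were higher and 16% lower in the same comparison, 35.2% in all. The median log2 difference of the members was 0.22, against 0.01 over all genes, and 67 of 76 lay above 0 (51.2% of all genes). All 3 E9.5 libraries were above all 3 E9.0 ones in 47 members and below them in 2, against 25.2% and 22.5% of all genes. In homozygous libraries 28 members were higher and 5 lower, against 19.6% and 15.8% of all genes (35.4% in all), with a member median of 0.08 against 0.01 and 53 above 0 (51.8% of all genes). There the E9.5 libraries lay above without overlap in 31 members and below in 5, against 26% and 22.1%. The 2 stage comparisons share no library. The 27 members that were higher in both genotypes and the 2 that were lower in both made up 29 of the 43 called in heterozygous and 29 of the 33 called in homozygous libraries, and no member was called in opposite directions. Over the 76 members the correlation of both stage differences was 0.916 (Pearson) and 0.768 (Spearman), as a description across genes, which are not independent replicates. The Pearson value rests in part on 2 extreme members of low level, Cox7a1 (1.93 and 1.88) and Ndufa4l2 (-1.17 and -1.06). Without tissue-restricted isoforms and symbol-only genes, 70 members remained. These ran from -0.298 to 0.486 in heterozygous and from -0.375 to 0.466 in homozygous libraries. Neither the correlations nor the shared calls were compared with all genes, so they do not set the members apart. In bulk RNA, more cells of a type and more RNA per cell cannot be told apart.

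Summed over all 80 members, the level was 6674 ± 206 CPM in heterozygous E9.0 libraries, 7136 ± 192 in homozygous E9.0, 7979 ± 268 in heterozygous E9.5 and 8031 ± 204 in homozygous E9.5 (mean ± SD, n = 3). The libraries of the 2 stages did not overlap in this sum in either genotype. ATP synthase held the largest sum. It went from 3151 ± 102 to 3884 ± 120 CPM with stage in heterozygous libraries, a ratio of 1.23, and from 3381 ± 69.5 to 3963 ± 91.4 CPM in homozygous ones, a ratio of 1.17. Complex I went from 1679 ± 37.0 to 2000 ± 61.8 CPM (ratio 1.19) and from 1768 ± 42.8 to 1955 ± 56.1 CPM (ratio 1.11). Complex III went from 683 ± 13.4 to 806 ± 25.2 CPM (ratio 1.18) and from 745 ± 18.9 to 827 ± 12.8 CPM (ratio 1.11). Complex IV showed the smallest ratios, 1.11 in heterozygous libraries (1162 ± 54.2 to 1289 ± 64.0 CPM) and 1.04 in homozygous ones (1242 ± 65.8 to 1286 ± 47.2 CPM). Its homozygous sums overlapped between stages (up to 1303 CPM at E9.0, down to 1257 CPM at E9.5). The heterozygous ones were barely apart (up to 1222 CPM at E9.0, down to 1227 CPM at E9.5). Sums weigh abundant genes most, and the difference between complexes was not tested. The order of the complexes by their median log2 stage difference in homozygous libraries depended on a correction for transcript length and GC content: the median of complex III went from 0.05 to 0.14 and that of ATP synthase from 0.13 to 0.07.

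**Figure D1:**
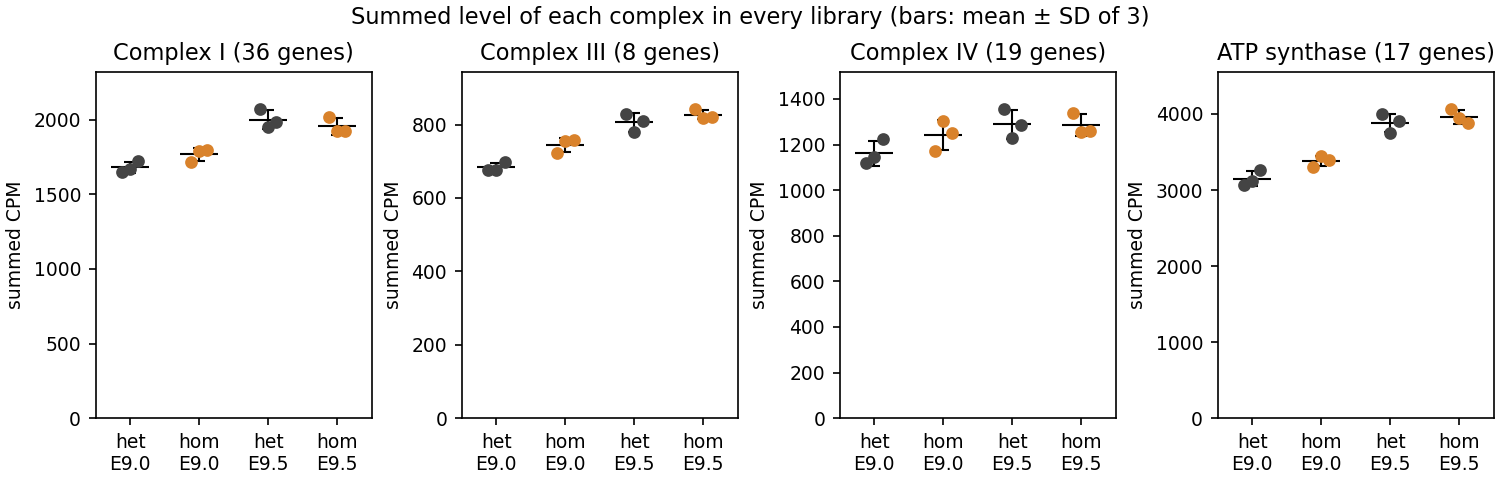
Summed CPM of each complex (vertical axis, from 0) in each of the 12 libraries, by group; points are libraries, black bars the mean ± SD of 3. In heterozygous libraries the mean of ATP synthase goes from 3151 to 3884 CPM with stage (ratio 1.23) and that of complex IV from 1162 to 1289 CPM (ratio 1.11).

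Markers of several cell types moved with stage too. Of 7 neural crest markers 4 fell in both genotypes (medians -0.89 and -0.44), and of 7 cranial ganglia markers 5 rose in both and 1 fell in heterozygous libraries (medians 0.80 and 0.94). The heart muscle list summed to 109.3 to 762.7 CPM at E9.0 and to 3762 to 6650 CPM at E9.5, and 9 of its 9 genes were higher at E9.5 in both genotypes. The erythroid list summed to 538.5 to 1178 CPM at E9.0 and 2792 to 5206 CPM at E9.5. Their part in the rise of the respiratory genes was not tested.

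Most core and membrane-arm subunits of complex I rose in heterozygous libraries. In heterozygous libraries 20 of its 35 tested members were higher at E9.5 and 0 were lower, with a median log2 difference of 0.23. That was 57.1% called, against 35.2% of all genes. In homozygous libraries 13 were higher and 2 lower, with a median of 0.13, 42.9% called against 35.4%. Of the 7 core subunits, 6 rose in heterozygous libraries (median 0.25) and 5 in homozygous ones (median 0.25). The heterozygous call of Ndufs7 was lost without E9.0 replicate 2 or 3 or E9.5 replicate 1 or 2 (adjusted p up to 0.11). It was also lost with a block for replicate number. The homozygous call of Ndufv1 was lost without E9.0 replicate 3 or E9.5 replicate 1 (adjusted p up to 0.0755). Ndufv2, which holds an iron-sulfur cluster beside the flavin subunit Ndufv1, had log2 differences of 0.14 in both genotypes, with adjusted p-values of 0.07 and 0.0676. Ndufs8, an iron-sulfur core subunit, rose by 0.38 ± 0.09 and 0.37 ± 0.09 (adjusted p = 0.00468 and 0.00628).

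The accessory subunits of the membrane arm held the 3 largest rises of complex I in heterozygous libraries, those of Ndufb4, Ndufb8 and Ndufb9, and 12 of 18 tested were higher (median 0.33). Among those 12, the call of Ndufa11 held in only 1 of the 6 fits that leave out 1 heterozygous library (adjusted p up to 0.138). That of Ndufb10 held in 3 of 6 (up to 0.103). In homozygous libraries 5 of 18 were higher and 1 lower (median 0.09), 33.3% called, which is near the 35.4% of all genes. Rises alone were 27.8% there, against 19.6% of all genes. The homozygous call of Ndufc2 held in only 1 of the 6 fits that leave out 1 homozygous library (adjusted p up to 0.18). Ndufb8, the complex I gene with the highest level per transcript length (147 CPM per kilobase), in heterozygous libraries stood at 87.0, 77.3 and 85.0 CPM at E9.0 and at 116.9, 122.7 and 108.9 CPM at E9.5. In homozygous libraries it stood at 90.4, 99.0 and 102.3 CPM and then at 105.3, 107.3 and 96.5 CPM, so the stages overlapped there. Its log2 stage difference was 0.48 ± 0.07 (adjusted p = 5.16e-05) in heterozygous and 0.08 ± 0.07 (adjusted p = 0.364) in homozygous libraries. Part of Ndufb8 (13.5% of its 50-base stretches) is shared with Gm20538, with which it also overlaps.

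Ndufb4 had the largest rise of complex I in heterozygous libraries, 0.49 ± 0.11 (adjusted p = 0.00338), from 9.54, 8.42 and 9.72 CPM to 13.4, 12.9 and 12.4 CPM. In homozygous libraries the difference was 0.23 ± 0.12 (adjusted p = 0.144). Its transcript shares 37.0% of its stretches with processed pseudogenes, so reads of the copies may be split. Ndufa10, another membrane-arm subunit, had the largest complex I rise in homozygous libraries. It went from 64.7, 61.1 and 65.1 CPM to 92.2, 85.1 and 86.3 CPM, a log2 difference of 0.47 ± 0.06 (adjusted p = 2.19e-05), and in heterozygous libraries the difference was 0.37 ± 0.06 (adjusted p = 0.000154).

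Of the 9 matrix-arm accessory subunits, 2 rose in heterozygous libraries, Ndufs4 and Ndufa12, a share of 22.2% against 19.2% of all genes. In homozygous libraries 3 rose, both of these and Ndufa6, and 1 fell, Ndufs6, so that 44.4% were called against 35.4% of all genes. Leaving out one library ended the call of Ndufs4 in heterozygous and of Ndufa6 in homozygous libraries (replicate 1 or 2 at E9.0 or E9.5, adjusted p up to 0.143 and 0.108), and that of Ndufa12 in homozygous libraries (replicate 1 of either stage, up to 0.0611). Ndufs6, a small zinc-binding subunit, was at 45.4, 47.8 and 51.3 CPM in homozygous E9.0 libraries and 40.7, 42.4 and 40.3 CPM at E9.5, a fall of 0.23 ± 0.08 on the log2 scale (adjusted p = 0.0273). Without homozygous E9.0 replicate 2 or 3, or homozygous E9.5 replicate 1 or 3, its adjusted p no longer passed and reached 0.11. It did not pass without a filter on low counts either (-0.19, adjusted p = 0.0854), and with total counts in place of TMM scaling the difference was -0.058 (adjusted p = 0.829), against an all-gene median of 0.18. Ndufa1, a small X-linked membrane-arm subunit (chrX:37187588-37191163, minus strand), went from 29.5, 28.0 and 27.9 CPM to 23.7, 21.4 and 20.7 CPM in homozygous libraries, a fall of 0.38 ± 0.09 (adjusted p = 0.00338). With total counts it was -0.21 and did not pass (adjusted p = 0.393). In heterozygous libraries its stage difference was -0.18 ± 0.09 (adjusted p = 0.132).

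Ndufs5, an accessory subunit of the membrane arm, had 0 counts in all 12 libraries. Of its 50-base stretches 35.6% also occur in BC002163, annotated as a pseudogene, whose row held 10 to 169 counts per library. How the authors' counting treated reads shared by both was not given in the sources used here, so this zero is no measure of the gene.

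**Figure D2:**
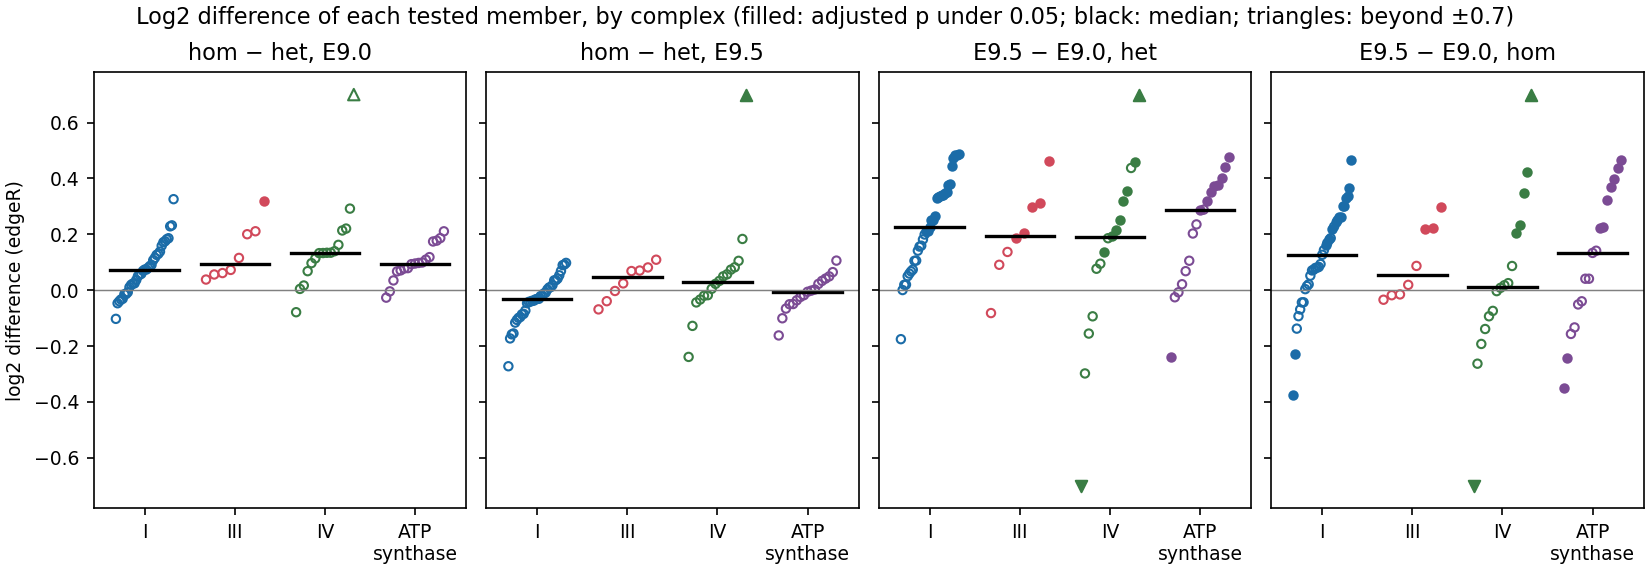
Log2 difference of each of the 76 tested members (points, in rank order within a complex) in the 4 comparisons; filled points have an edgeR adjusted p under 0.05, black lines are medians, and triangles are members beyond ±0.7. In heterozygous libraries all 4 medians of the stage difference lie between 0.19 and 0.29, in homozygous libraries between 0.01 and 0.13. After correction for transcript length and GC content they lie between 0.14 and 0.25 and between 0.02 and 0.14, each in another order. The heterozygous median of complex I goes from 0.23 to 0.14.

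In complex III, 5 of 8 members rose with stage in heterozygous libraries (median 0.20) and 3 of 8 in homozygous ones (median 0.05). Those were 62.5% called against 35.2% of all genes, and 37.5% against 35.4%. The homozygous share was thus near the background for calls in either direction. All calls of the complex were rises, however, and 19.2% and 19.6% of all genes rose. The 3 in homozygous libraries were the core proteins Uqcrc1 and Uqcrc2 and the Rieske iron-sulfur protein Uqcrfs1, which takes the electron from ubiquinol. Uqcrc1 had the highest CPM of the complex, 147 to 164 CPM in heterozygous E9.0 and 176 to 181 CPM in heterozygous E9.5 libraries. The rise of Uqcrc1 was lost without E9.0 replicate 2 or 3 or E9.5 replicate 3 in heterozygous libraries (adjusted p up to 0.0825) and without E9.0 replicate 1 in homozygous ones (0.0622). Uqcrc2 rose by 0.31 ± 0.06 (adjusted p = 0.00135) in heterozygous and 0.30 ± 0.06 (adjusted p = 0.00189) in homozygous libraries. Of the 5 small accessory subunits, 2 rose in heterozygous libraries, Uqcrh and Uqcr10, and 0 in homozygous ones by edgeR, where 0 also had an unadjusted p under 0.05 (44.7% of all genes did). Uqcrh, the hinge protein beside cytochrome c1, had the highest level of the complex per kilobase (182 CPM) and a stage difference of 0.19 ± 0.06 (adjusted p = 0.0143) in heterozygous and -0.02 ± 0.06 (adjusted p = 0.858) in homozygous libraries. Its rise was lost without heterozygous replicate 1 of E9.0 or of E9.5 (adjusted p up to 0.0641).

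Uqcrfs1 (chr13:30540308-30545362, minus strand) was the one member that passed the test between genotypes at E9.0. The 250 bases before its RefSeq start (GRCm38.p6, chr13:30545317-30545566, minus strand) are shown because the gene differed by both genotype and stage. They hold none of the 4 motifs searched (given with the motif counts), so the run has no capitals.
Uqcrfs1: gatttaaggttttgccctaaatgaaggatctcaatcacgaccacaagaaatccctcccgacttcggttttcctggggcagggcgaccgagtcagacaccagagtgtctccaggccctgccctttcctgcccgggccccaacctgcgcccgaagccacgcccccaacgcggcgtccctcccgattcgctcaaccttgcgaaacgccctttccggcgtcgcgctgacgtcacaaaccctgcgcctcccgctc

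At E9.0 Uqcrfs1 stood at 82.6, 82.7 and 90.9 CPM in heterozygous and at 104.2, 108.8 and 107.2 CPM in homozygous libraries. The E9.5 values were 121.2, 113.0 and 119.5 CPM in heterozygous and 126.9, 122.7 and 124.5 CPM in homozygous libraries. The genotypes did not overlap at either stage, and all E9.5 libraries were above all E9.0 ones. The genotype difference at E9.0 was 0.32 ± 0.06 (SE) on the log2 scale, 1.25-fold (edgeR adjusted p = 0.0109; exact two-sided permutation p = 0.1, the smallest that 3 against 3 can give). At E9.5 it was 0.08 ± 0.05 (adjusted p = 0.582). The E9.0 call was lost when heterozygous replicate 2 was left out (adjusted p = 0.102), with total counts in place of TMM and in a fit on the 6 E9.0 libraries alone (adjusted p up to 0.115). It held without replicate 1, the library rich in Rn45s. With stage, Uqcrfs1 rose by 0.46 ± 0.05 in heterozygous (adjusted p = 1.03e-05) and 0.22 ± 0.05 in homozygous libraries (adjusted p = 0.0044).

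In complex IV 8 of 16 tested members rose and 1 fell in heterozygous libraries (median 0.19), and in homozygous libraries 5 rose and 1 fell (median 0.01). The 56.2% called in heterozygous libraries stood against 35.2% of all genes. The 37.5% called in homozygous ones, in either direction, were near the 35.4% of all genes, whose median was also 0.01. Rises alone were 50% and 31.2%, against 19.2% and 19.6% of all genes. Cox6a1, the widely expressed form of a small subunit (the muscle form Cox6a2 is outside the rule), rose most among the common subunits. It went from 57.2, 43.3 and 48.1 CPM to 69.2, 66.4 and 67.8 CPM in heterozygous libraries and from 45.8, 45.9 and 58.2 CPM to 68.5, 67.7 and 64.4 CPM in homozygous ones. The stages did not overlap, although replicate 1 of heterozygous E9.0 and replicate 3 of homozygous E9.0 lay above the others of their groups. The log2 differences were 0.46 ± 0.10 (adjusted p = 0.0016) and 0.42 ± 0.10 (adjusted p = 0.00306). Its upstream 250 bases (GRCm38.p6, chr5:115348959-115349208, minus strand) are shown as the member promoter that holds both the NRF1 motif and the ETS motif, in capitals.
Cox6a1: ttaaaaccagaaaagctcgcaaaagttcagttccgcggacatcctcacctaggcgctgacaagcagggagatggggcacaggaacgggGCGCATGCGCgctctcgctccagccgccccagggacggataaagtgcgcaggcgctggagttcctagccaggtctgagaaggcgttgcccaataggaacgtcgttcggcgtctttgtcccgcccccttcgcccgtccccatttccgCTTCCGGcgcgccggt

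Cox4i1, the regulatory subunit that binds adenine nucleotides, was the most abundant complex IV gene both as CPM and per kilobase (277 CPM per kilobase). Its level rose from 191.7, 186.7 and 191.0 CPM to 235.3, 216.6 and 225.1 CPM in heterozygous libraries (0.25 ± 0.06, adjusted p = 0.00228). In homozygous libraries it was 192.5, 204.7 and 211.6 CPM at E9.0 and 211.8, 207.3 and 200.5 CPM at E9.5 (0.03 ± 0.06, adjusted p = 0.753). Cox7b varied within a group, with 93.1, 161.9 and 95.2 CPM in homozygous E9.0 libraries, and no comparison of it passed. Cox8a rose in both genotypes (0.32 ± 0.07 and 0.23 ± 0.07), and Cox7a2 in heterozygous libraries (0.22). The call of Cox8a in homozygous libraries was lost without E9.0 replicate 2 (adjusted p = 0.0617), and that of Cox7a2 without replicate 1 of either stage (up to 0.144). Heterozygous calls of Cox5a and Ndufa4 held in 1 and 2 of the 6 fits that leave out 1 library (adjusted p up to 0.169 and 0.144).

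Of 4 tested isoforms known as restricted to some tissues, Cox7a1 rose and Ndufa4l2 fell with stage in both genotypes, and the other two passed in no comparison. Cox7a1, the heart and skeletal muscle form of subunit 7a, stood at 0.81, 0.91 and 0.30 CPM in heterozygous and 1.05, 0.57 and 0.54 CPM in homozygous E9.0 libraries. At E9.5 it stood at 2.29, 2.58 and 2.52 CPM in heterozygous and 1.92, 3.5 and 2.36 CPM in homozygous libraries, above every E9.0 value. The log2 differences were 1.93 ± 0.34 and 1.88 ± 0.35 (adjusted p = 0.000386 and 0.000571), the largest rises among the members. The heart muscle list rose in the same comparisons (above). Relative to its widely expressed paralog Cox7a2 in the same library, a ratio that needs no scaling, Cox7a1 counts were 0.0084 ± 0.0043 at E9.0 and 0.0259 ± 0.0034 at E9.5 in heterozygous libraries, and 0.0076 ± 0.0031 and 0.0271 ± 0.0088 in homozygous ones (exact permutation p = 0.1 for each stage difference, the smallest possible).

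Ndufa4l2, a paralog of the complex IV subunit Ndufa4 known as a target of hypoxia signalling, fell with stage and was higher in homozygous libraries. It lies at chr10:127514967-127517154 (plus strand) and shares 32 bases with an exon of Shmt2 on the other strand. Its level was low. At E9.0 heterozygous libraries held 1.03, 1.29 and 1.85 CPM and homozygous libraries 2.71, 2.46 and 3.31 CPM. The E9.5 values were 0.58, 0.68 and 0.64 CPM in heterozygous and 1.52, 1.35 and 1.16 CPM in homozygous libraries. Neither stage had overlapping genotypes, nor did the stages within a genotype. With stage the log2 difference was -1.17 ± 0.26 in heterozygous and -1.06 ± 0.23 in homozygous libraries (adjusted p = 0.00255 and 0.00165).

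Between genotypes the log2 difference of Ndufa4l2 was 0.98 ± 0.24 at E9.0 (adjusted p = 0.0798) and 1.09 ± 0.25 at E9.5 (adjusted p = 0.0336), 1.97-fold and 2.12-fold. The E9.5 call was lost in each of the 6 fits that leave out one E9.5 library of either genotype (log2 difference 0.997 to 1.18, adjusted p up to 0.114), and with total counts in place of TMM (adjusted p = 0.0958). The ratio of Ndufa4l2 to Ndufa4 counts was 0.0144 ± 0.0034 in heterozygous and 0.0264 ± 0.0045 in homozygous E9.0 libraries, and 0.0058 ± 0.0008 and 0.0126 ± 0.0015 at E9.5 (exact permutation p = 0.1 at each stage). At E9.5 4 of the 5 endothelial markers were also higher in homozygous libraries (median log2 difference 0.64) and 4 of 7 neural crest markers lower (median -0.65); their part in the Ndufa4l2 difference was not tested. Cox4i2 and Cox6b2 were at 1.83 to 3.04 CPM and 1.56 to 2.70 CPM, and no comparison of either passed. Cox7b2, Cox8b and Cox8c had 0 to 3 counts per library, at or under the limit of 3 counts that a zero allows, so no fold is given.

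**Figure D3:**
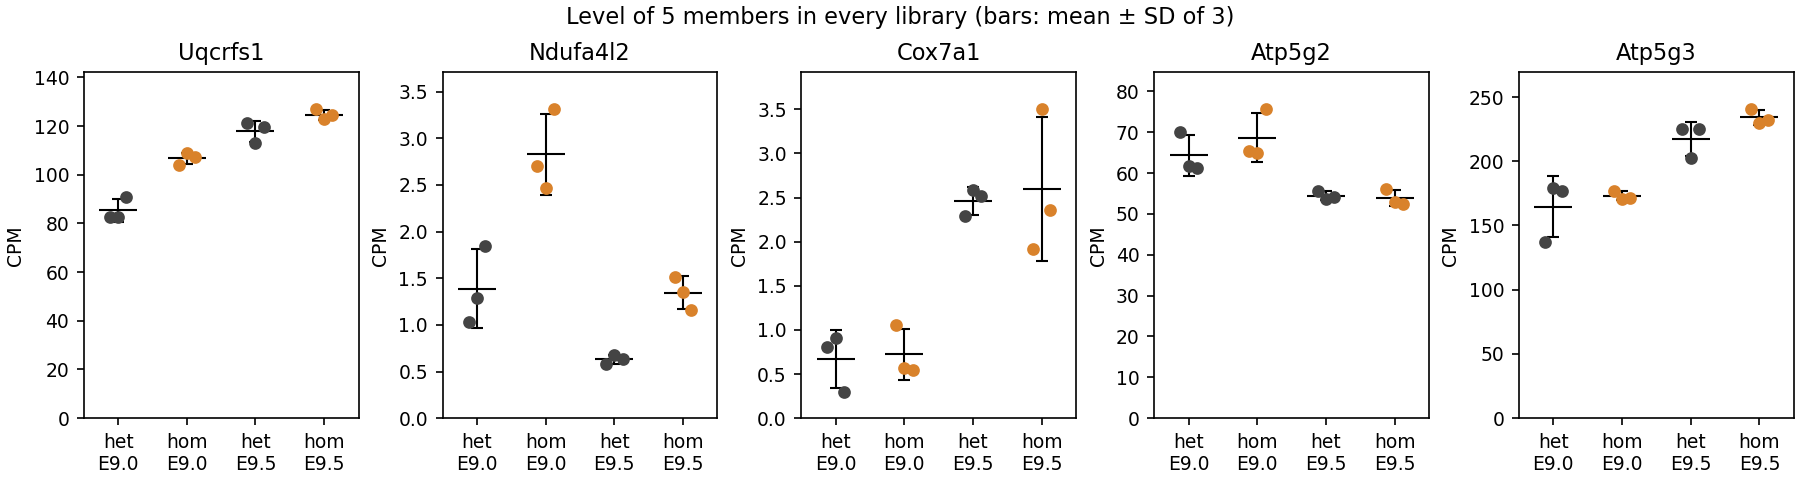
CPM (vertical axis, from 0) of Uqcrfs1, Ndufa4l2, Cox7a1, Atp5g2 and Atp5g3 in each library, by group, with the mean ± SD of 3. Uqcrfs1 and Ndufa4l2 separate by genotype at both stages; Cox7a1 and Atp5g3 are higher and Ndufa4l2 and Atp5g2 lower at E9.5.

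In ATP synthase 8 of 17 members rose and 1 fell with stage in heterozygous libraries (median 0.29), and 7 rose and 2 fell in homozygous ones (median 0.13). That was 52.9% called in each, against 35.2% and 35.4% of all genes. Rises alone were 47.1% and 41.2%, against 19.2% and 19.6% of all genes. Atp5b, the catalytic beta subunit, was the most abundant member both as CPM and per kilobase (669 CPM per kilobase), at 1088, 1116 and 1170 CPM in heterozygous E9.0 and 1399, 1335 and 1383 CPM in heterozygous E9.5 libraries. It rose by 0.29 ± 0.05 (adjusted p = 0.000425), and by 0.23 ± 0.05 in homozygous libraries (adjusted p = 0.00257), where total counts gave 0.40 and no call (adjusted p = 0.058). Atp5c1, the rotating gamma stalk, rose most. It went from 134.8, 144.3 and 142.3 CPM to 204.1, 185.0 and 198.0 CPM in heterozygous libraries, and from 144.4, 154.6 and 132.7 CPM to 198.2, 200.4 and 197.8 CPM in homozygous ones. The log2 differences were 0.48 ± 0.06 and 0.47 ± 0.06 (adjusted p = 2.63e-05 and 3.24e-05). Atp5o, the stalk subunit that binds the head, rose by 0.44 ± 0.06 and 0.37 ± 0.06, though 35.5% of its stretches recur in other genes.

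The genes of the c ring, the proton-driven rotor, went different ways. Atp5g1, Atp5g2 and Atp5g3 encode precursors that differ in their import sequence and yield the same mature subunit. Atp5g3 went from 137.2, 179.2 and 177.1 CPM to 224.8, 202.3 and 225.3 CPM in heterozygous libraries, and from 177.0, 170.3 and 171.7 CPM to 240.4, 229.9 and 231.9 CPM in homozygous ones. Atp5g2 went from 70.1, 61.7 and 61.3 CPM to 55.7, 53.6 and 54.2 CPM, and from 65.3, 65.0 and 75.6 CPM to 56.1, 52.8 and 52.5 CPM. Neither gene's stages overlapped. Atp5g3 rose by 0.40 ± 0.08 and 0.44 ± 0.08 (adjusted p = 0.00129 and 0.000655), and Atp5g2 fell by 0.24 ± 0.07 and 0.35 ± 0.07 (adjusted p = 0.0148 and 0.0011). The fall of Atp5g2 in heterozygous libraries was 0.17 and did not pass (adjusted p = 0.0707) once replicate 1 of E9.0 was left out. With total counts in place of TMM scaling its difference was 0.15 there, against an all-gene median of 0.38, and -0.18 in homozygous libraries, against 0.18, and neither passed (adjusted p = 0.354 and 0.364). Atp5g1 had stage differences of 0.11 and 0.04 that did not pass.

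The count ratio of Atp5g3 to Atp5g2 within a library, a measure chosen after the values were seen, was 1.96, 2.91 and 2.89 in heterozygous E9.0 libraries and 4.04, 3.78 and 4.16 at E9.5. In homozygous libraries it was 2.71, 2.62 and 2.27 and then 4.29, 4.35 and 4.42. The stages did not overlap, with ratios of means of 1.54 and 1.72 (exact permutation p = 0.1 each). All 50-base stretches of Atp5g2 and 56.2% of those of Atp5g1 recur in other annotated genes, mostly processed pseudogenes, so both rows are uncertain, whereas 0% of Atp5g3 recurs. The upstream 250 bases of the 3 genes (GRCm38.p6) are shown because these genes for one protein moved apart. Capitals mark the NRF1 motif in Atp5g2 and the ESRRA motif, on the other strand, in Atp5g3. They lie at chr11:96075632-96075881, chr15:102671048-102671297 and chr2:73911327-73911576, all on the minus strand.
Atp5g1: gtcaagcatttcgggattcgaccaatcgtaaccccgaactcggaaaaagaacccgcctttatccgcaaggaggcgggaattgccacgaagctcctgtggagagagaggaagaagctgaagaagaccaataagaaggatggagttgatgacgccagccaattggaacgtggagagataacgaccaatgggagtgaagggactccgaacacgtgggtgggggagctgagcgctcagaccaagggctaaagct
Atp5g2: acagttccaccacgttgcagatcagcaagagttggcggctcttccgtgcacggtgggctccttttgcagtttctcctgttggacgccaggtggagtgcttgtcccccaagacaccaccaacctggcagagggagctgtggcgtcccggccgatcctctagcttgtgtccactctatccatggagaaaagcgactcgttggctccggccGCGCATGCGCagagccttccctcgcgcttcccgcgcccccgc
Atp5g3: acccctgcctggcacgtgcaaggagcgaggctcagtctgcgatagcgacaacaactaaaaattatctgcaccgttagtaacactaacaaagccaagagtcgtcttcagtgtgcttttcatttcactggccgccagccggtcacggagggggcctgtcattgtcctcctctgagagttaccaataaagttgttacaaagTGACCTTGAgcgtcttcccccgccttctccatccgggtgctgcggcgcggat

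Atp5k, the small e subunit at the dimer interface, went from 63.3, 68.9 and 75.1 CPM to 60.2, 56.4 and 58.6 CPM in homozygous libraries, a fall of 0.24 ± 0.07 (adjusted p = 0.0167). That call was lost without homozygous E9.0 replicate 3 or homozygous E9.5 replicate 2 (adjusted p up to 0.0845). In heterozygous libraries its difference was -0.01 ± 0.07 (adjusted p = 0.952).

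Motifs were searched on both strands in 300 bases around the RefSeq start, from 250 before to 50 after, for the 67 members with a promoter in the table. They were the NRF1 motif (the capitals shown in Atp5g2 and the first capitals in Cox6a1), the ETS motif CCGGAAG of factors such as GABPA, a YY1 motif and the ESRRA motif TCAAGGTCA. No matches of different motifs overlapped. The NRF1 motif was in 7.46% of the members' promoters and in 2.16% of those of tested genes. CCGGAAG was in 20.9% against 18.3%, the YY1 motif in 8.96% against 2.14%, and TCAAGGTCA in 1.49% (Atp5g3 alone) against 0.29%. A match is a run of letters, not a bound site.

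Between genotypes at E9.0, 1 of 76 members passed the test (Uqcrfs1), or 1.32%, against 0.587% of all genes (0.432% higher, 0.155% lower). An unadjusted p under 0.05 was found in 16 members, all higher in homozygous libraries, against 6.76% of all genes that were higher (13.3% in either direction). Of 76 members 65 had a log2 difference above 0 (49% of all genes did), with a median of 0.09 against 0.00 over all genes. In 18 of 76 members all 3 homozygous libraries lay above all 3 heterozygous ones and in 0 below, against 9.07% and 8.2% of all genes. The median was 0.07 in complex I, 0.09 in complex III, 0.13 in complex IV and 0.10 in ATP synthase. Within complex I it was 0.02 over the 7 core subunits and 0.12 over the 18 membrane-arm subunits. Leaving out heterozygous replicate 1 gave a member median of 0.09 with 65 members above 0. Cell-type markers moved in this comparison as well. Of 7 neural crest markers 5 lay lower in homozygous libraries without overlap, and Tfap2b passed the test. Without overlap, 4 of 7 cranial ganglia markers lay higher and 1 lower, and 3 of 5 endothelial markers lay higher. Their part in the E9.0 difference was not tested.

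Transcript length moved with that E9.0 difference. The 52 members whose transcripts are under 1000 bases had a median of 0.12 and the 24 longer ones 0.06, while all tested genes under 1000 bases had a median of 0.07 and longer ones -0.01. Cytosolic ribosomal protein genes, which also have short transcripts, lay above 0 in 77 of 79 cases at E9.0, with a median of 0.14. After correction for transcript length and GC content the members' median was 0.06. By complex the corrected medians were 0.04 in complex I, 0.08 in complex III, 0.10 in complex IV and 0.07 in ATP synthase.

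**Figure D4:**
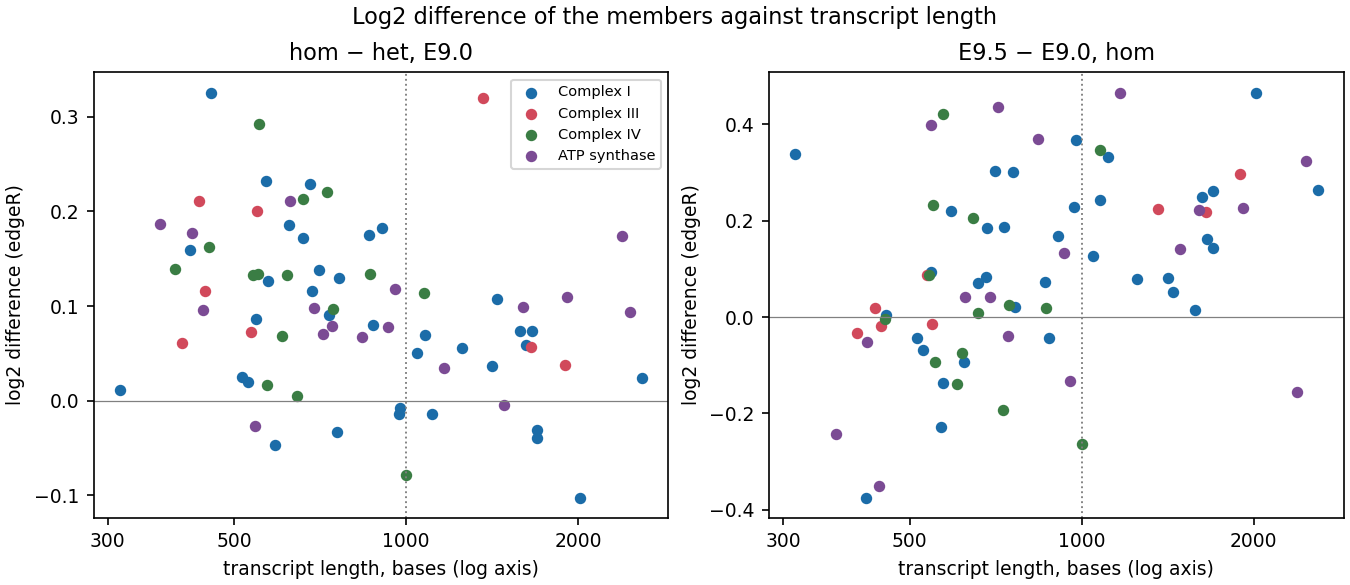
Log2 difference of the tested members (Ndufa4l2 and Cox7a1, beyond ±0.7, not drawn) against transcript length on a log axis, for homozygous minus heterozygous at E9.0 (left) and E9.5 minus E9.0 in homozygous libraries (right); the dotted line is at 1000 bases. Members under 1000 bases have the higher median at left (0.12 against 0.06) and the lower one at right (0.02 against 0.22).

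At E9.5, 1 of 76 members passed between genotypes (Ndufa4l2), 1.32% against 1.89% of all genes (1.19% higher, 0.702% lower), and 4 had an unadjusted p under 0.05, against 13.4%. The median was -0.01 and 34 members lay above 0 (49.2% of all genes). After correction for transcript length and GC content the median was 0.03 and 51 members lay above 0. All 3 homozygous libraries were above the heterozygous ones in 6 members and below them in 7, against 11.4% and 9.47% of all genes. Cox4i1, which lay higher in homozygous libraries at E9.0 without overlap (0.10 ± 0.06, adjusted p = 0.465), lay lower without overlap at E9.5 (-0.13 ± 0.05, adjusted p = 0.319). Ndufb8 had the same order of differences, 0.23 ± 0.07 at E9.0 and -0.17 ± 0.07 at E9.5 (adjusted p = 0.172 and 0.254).

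The stage difference was larger in heterozygous than in homozygous libraries in 62 of 76 members (47.9% of all genes). The test of that difference, the interaction of stage and genotype, passed for 0 of 76 members by edgeR, against 0.0675% of all genes, and 14 members, all with the smaller value in homozygous libraries, had an unadjusted p under 0.05, 18.4% against 4.52% of all genes in that direction (8.6% in either). The median interaction was -0.09 over the members and 0.01 over all genes. It was -0.11 in complex I, -0.08 in complex III and -0.07 in complex IV and ATP synthase before any correction for length. Ndufb8 had -0.40 ± 0.10 (edgeR adjusted p = 0.181) and passed by DESeq2 alone (-0.40, adjusted p = 0.0379), the 1 member that did. Length moved with the interaction as well. Members under 1000 bases had a median of -0.11 and all genes under 1000 bases -0.12, while longer members had -0.05 and longer genes 0.02. After correction for transcript length and GC content the members' median interaction was -0.02, and 45 of 76 in place of 62 lay below 0. The medians were then -0.05 in complex I, -0.02 in complex III, 0.03 in complex IV and -0.05 in ATP synthase, so that complex IV changed sign.

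**Figure D5:**
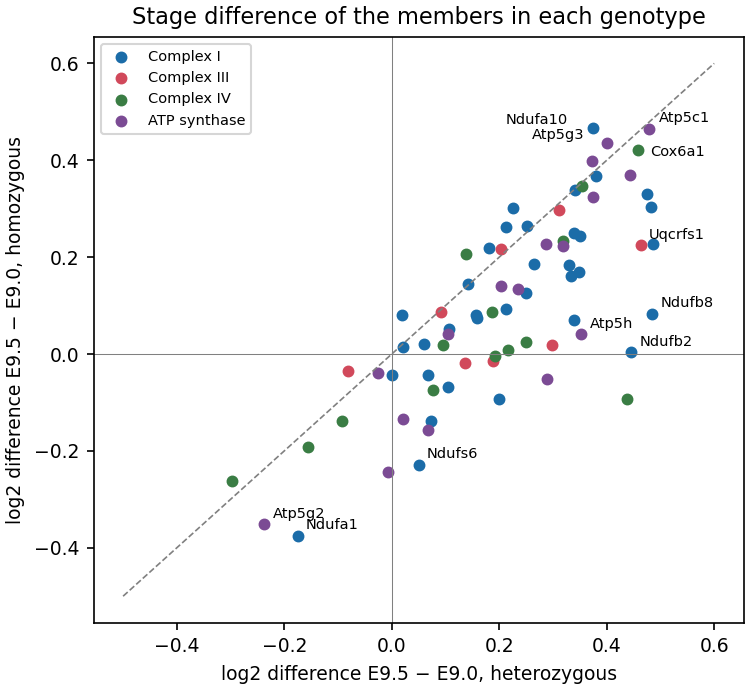
Log2 stage difference (E9.5 minus E9.0) of the tested members in heterozygous (horizontal) and homozygous (vertical) libraries, by complex; the dashed line marks equal values and Ndufa4l2 and Cox7a1, beyond ±0.7, are not drawn. Of 76 members, 62 lie below the line, among them Ndufb8 (0.48 and 0.08), and Atp5g2 lies below 0 on both axes (-0.24 and -0.35).

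Genes that work with the members moved in part with them. Of 10 respiratory genes outside the symbol rule (complex II, cytochrome c and c1, electron transfer flavoprotein and dihydroorotate dehydrogenase), 8 rose with stage in heterozygous and 6 in homozygous libraries, and 0 fell. Rises were thus 80% and 60%, against 19.2% and 19.6% of all genes. Sdhb, the iron-sulfur subunit of complex II, rose by 0.40 ± 0.05 and 0.34 ± 0.05 (adjusted p = 2.2e-05 and 0.000107). Of 13 citric acid cycle genes 6 rose in heterozygous libraries, and 7 rose and 1 fell in homozygous ones. Rises were 46.2% and 53.8% there, against the same shares of all genes. Cs, citrate synthase, rose by 0.34 ± 0.05 and 0.51 ± 0.05. Of 41 assembly factors 10 rose and 2 fell, and 6 rose and 3 fell, which is near the 19.2% and 19.6% of all genes that rose.

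Of 11 regulators of these genes, 2 rose and 1 fell in heterozygous libraries and 2 rose and 2 fell in homozygous ones, 27.3% and 36.4% called against 35.2% and 35.4% of all genes, with medians of -0.03 in both. Those called were named after their values were seen. Ppargc1a, a coactivator of mitochondrial biogenesis, rose by 1.76 ± 0.35 and 2.23 ± 0.35 (adjusted p = 0.00148 and 0.000278), and Esrra, a nuclear receptor it binds, by 0.41 ± 0.08 and 0.24 ± 0.08 (adjusted p = 0.00112 and 0.0351). The related coactivator gene Pprc1 fell by 0.69 ± 0.10 and 0.63 ± 0.10, and Nrf1 fell in homozygous libraries by 0.20 ± 0.06 (adjusted p = 0.0225). Of 77 mitochondrial ribosomal protein genes, 11 were called higher and 2 lower in heterozygous libraries and 1 higher and 7 lower in homozygous ones. Those were 16.9% and 10.4% called, under the 35.2% and 35.4% of all genes. Of 79 cytosolic ribosomal protein genes, 13 fell and 3 rose in heterozygous libraries (20.3% called), and 58 fell and 0 rose in homozygous ones (73.4% called).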

How the data were processed

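The authors deposited 1 table of raw counts per gene symbol for 12 libraries; per the submitters' processing notes, mm10, cutadapt, STAR, featureCounts and MultiQC were used, and versions, annotation and strand setting are not given in the sources used here. Reads of overlapping or antisense genes and of near-identical copies are therefore uncertain. From the counts, genes were filtered by filterByExpr over the 4 groups, scaled by TMM and tested with edgeR 4.0.16 (R 4.3.3; 1 robust quasi-likelihood model with a mean per group, two-sided, Benjamini-Hochberg over 14810 genes, threshold 0.05). SEs were derived from the F statistic. CPM used TMM-scaled library sizes, and fitted differences a prior count. DESeq2 1.42.0, limma 3.58.1 (voom), other scalings and filters, a correction for GC content and transcript length, and leaving out each library were alternatives. The procedure was tested on simulated data.

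Counting error limits low genes most: members under about 50 counts per library are the least precise. Replicates of 1 group differed by more than sampling noise, and no library was a duplicate. Positions, lengths, overlaps and shared 50-base stretches came from GENCODE M21 (GRCm38, the build of mm10), and promoters from RefSeq (GRCm38.p6; 67 of 80 members matched). Members described with full values were those past the threshold between genotypes, up to 2 members per complex with the largest called rise, and 2 with the largest called fall, in each stage comparison (no overlap, at least 10 counts on average), the most abundant per complex, and isoforms restricted to some tissues with their partners; Cox7b and genes of other lists were named after their values were seen. One item that this rule names is not reported here. The members and lists were chosen with earlier results of these data known.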

Additional observations from a re-analysis of the deposited data

How the results depend on the processing

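Stage counts of called members stayed within 1.5 times under RLE scaling, TMM without Rn45s, other filters, DESeq2, limma-voom and fits on only the groups compared. With total counts alone, which put Rn45s into the scaling and moved the median of all genes to 0.19 (E9.0 genotype), 0.38 and 0.18 (stage) and -0.19 (interaction), 0 members were called between genotypes at either stage and 69 with stage in heterozygous libraries. The member medians were then 0.29, 0.59, 0.25 and -0.29, and single values were 0.15 for Atp5g2 (stage, heterozygous) and -0.067 for Ndufa4l2 (interaction). The homozygous stage calls of Uqcrfs1, Ndufv1, Ndufs6, Ndufa6, Ndufa1, Ndufc2, Cox5a, Atp5b, Atp5g2, Atp5f1 and Atp5k were lost (adjusted p from 0.0537 to 0.829). Requiring a mean of 50 counts, or leaving out restricted isoforms and symbol-only genes, removed Ndufa4l2 and left 0 calls at E9.5. DESeq2 called 2 members at E9.0 (Uqcrfs1 and Uqcrh) and 1 in the interaction (Ndufb8). The fit on only the 6 E9.0 libraries called 0. The GC and length correction gave a stage median of 0.15 in heterozygous libraries and 0.069 for Cox7a1 in the interaction, and ended the stage calls of Ndufs3, Ndufs4, Ndufs7, Ndufb10, Cox5a and Cox7a2 in heterozygous and of Ndufv1 and Atp5k in homozygous libraries. The heterozygous stage call of Cox5a was also lost under RLE scaling, no filter, DESeq2, only the groups compared and a block for replicate number. That of Ndufa11 was lost under RLE scaling and the block, and that of Ndufs7 under the block. Those of Cox7a2 and Ndufa4 were lost in the fit on only the groups compared. The homozygous call of Ndufc2 was lost under RLE scaling, TMM without Rn45s, DESeq2 and limma-voom. Leaving out 1 library each gave 0 to 1 calls at E9.0, 0 in all fits at E9.5, 35 to 42 and 27 to 31 for stage, and 0 for the interaction. Uncalled differences of low genes changed sign in such fits: Cox7a1 ran from -0.29 to 0.49 (E9.0), -0.20 to 0.26 (E9.5) and -0.41 to 0.38 (interaction), and Ndufa4l2 from -0.18 to 0.26 (interaction).

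Same-numbered libraries of both genotypes at a stage correlated at 0.0297 to 0.109 in their deviations, and differently numbered ones at -0.196 to 0.171. Deviations from means of 3 libraries cannot decide whether the numbers pair the libraries. With the replicate block 1, 1, 41, 33 and 0 members were called in the E9.0, E9.5, heterozygous stage, homozygous stage and interaction comparisons.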
